A study of Homo sapiens with 4 samples.

Results

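The cells described here are the 100 cells of the vemurafenib-resistant library RV with the highest summed level of *ATF3*, *GADD45A*, *TRIML2* and *DMBT1*, among 4327 filtered RV cells and 28640 filtered cells in all 4 libraries. They were chosen by these measured values, as marker UMIs per 10000 UMIs of the cell, where a UMI, or unique molecular identifier, counts a captured transcript, ties going by barcode order. They make up 2.31% of the filtered RV cells, and the other 4227 RV cells served as the comparison. The deposited RV table lists more barcodes than the number of RV cells the study gives, so the cells described here may include some that the study left out. Other genes are given as CPM, the UMIs of a gene per 1000000 UMIs summed over a group of cells.

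All libraries were made from A375, an established melanoma line with the *BRAF* V600E mutation, which keeps the MAPK pathway active. RV cells had been kept on vemurafenib, an inhibitor of mutant BRAF, for 10 to 14 days, at a concentration below its IC50. RVC cells received vemurafenib with cobimetinib and RVT cells vemurafenib with trametinib, both inhibitors of the kinase MEK, for as long, and S cells were untreated. The inhibitors were taken off 24 h before capture, so that treated cells were measured without drug. Each condition is 1 library of 1 culture, with 10000 cells loaded, so that nothing could be tested between conditions, cells are not replicates, and no p-value is given. Ranges beside values are exact 95% intervals that cover counting error only.

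*ATF3* encodes a stress-induced transcription factor of the ATF/CREB family, which responds to DNA damage, starvation for amino acids and unfolded proteins. *GADD45A* encodes a small protein induced by growth arrest and DNA damage, a known target of p53 and of the stress factor ATF4. *TRIML2* belongs to the tripartite-motif-like genes, and *DMBT1* encodes a secreted scavenger-receptor protein of mucosal surfaces. The p53 pathway raises genes of cell cycle arrest, DNA repair and apoptosis, whereas the integrated stress response acts through the translation of *ATF4*.

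The stretches of 250 bases before the start of 3 of the marker genes, of the long noncoding RNA gene *SNHG12*, which had the largest ratio of the genes outside the score with at least 20 CPM over all RV cells, and of *AEN*, which had the largest ratio of the listed p53 targets at that level and reached it only through the 100 cells, are shown because these genes were high in the same cells. They come from RefSeq on GRCh38.p14 and read 5′ to 3′ on the strand of the gene. The table gives 1 start per gene and holds no entry for *GADD45A*. For *ATF3*, *DMBT1*, *SNHG12* and *AEN*, GENCODE draws the gene to begin further upstream, within or before the stretch. Capitals mark matches, on either strand, to the CRE motif TGACGTCA, the AP-1 motif TGANTCA, the C/EBP-ATF motif TGATGNAA or the TATA motif TATAAA. They also mark the p53 half-site, the decamer RRRCWWGYYY, where R is A or G, W is A or T and Y is C or T.
ATF3, chr1:212565157-212565406, plus strand: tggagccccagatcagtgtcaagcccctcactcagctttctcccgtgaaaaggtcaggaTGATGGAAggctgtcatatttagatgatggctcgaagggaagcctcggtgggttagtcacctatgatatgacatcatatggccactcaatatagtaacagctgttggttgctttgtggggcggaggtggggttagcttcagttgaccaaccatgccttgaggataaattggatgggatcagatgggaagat
TRIML2, chr4:188109604-188109853, minus strand: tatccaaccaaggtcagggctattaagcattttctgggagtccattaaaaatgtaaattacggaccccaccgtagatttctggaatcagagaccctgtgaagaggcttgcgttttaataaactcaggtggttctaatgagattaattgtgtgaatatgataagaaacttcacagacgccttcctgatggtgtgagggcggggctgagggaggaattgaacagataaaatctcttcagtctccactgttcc
DMBT1, chr10:122560504-122560753, plus strand: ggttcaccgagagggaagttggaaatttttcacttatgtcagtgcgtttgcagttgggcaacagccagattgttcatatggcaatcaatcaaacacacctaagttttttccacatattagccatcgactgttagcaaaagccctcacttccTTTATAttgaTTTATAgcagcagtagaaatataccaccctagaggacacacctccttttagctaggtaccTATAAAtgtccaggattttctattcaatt
SNHG12, chr1:28581874-28582123, minus strand: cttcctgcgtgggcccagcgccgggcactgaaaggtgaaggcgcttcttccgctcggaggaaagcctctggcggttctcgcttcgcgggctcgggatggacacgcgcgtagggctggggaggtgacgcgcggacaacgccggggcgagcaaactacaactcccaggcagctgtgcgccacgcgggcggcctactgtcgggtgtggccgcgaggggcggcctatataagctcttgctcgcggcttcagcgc
AEN, chr15:88621090-88621339, plus strand: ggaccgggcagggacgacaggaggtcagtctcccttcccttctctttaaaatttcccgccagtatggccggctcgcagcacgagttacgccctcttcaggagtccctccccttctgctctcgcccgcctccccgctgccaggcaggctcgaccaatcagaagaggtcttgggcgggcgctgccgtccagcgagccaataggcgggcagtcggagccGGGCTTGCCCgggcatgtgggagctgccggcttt
The *ATF3* stretch holds a C/EBP-ATF match that begins at position -191 from the start. This start lies at the upstream end of the gene. Other starts of *ATF3* were not searched, and which start the cells used was not measured. *AEN* holds a p53 half-site at -34, which is not a full p53 site, and *DMBT1* holds TATA matches at -99, -89 and -29. No match lies in the *TRIML2* and *SNHG12* stretches. The searches took the given letters only, so that near matches were not marked. Examples are tataag in the *SNHG12* stretch, near the TATA motif, and tgacatca in the *ATF3* stretch, near the CRE motif. Among 35116 promoters of the same length, 1.65% hold the CRE motif, 6.57% the AP-1 motif, 3.14% the C/EBP-ATF motif, 10.7% the TATA motif and 5.57% the p53 half-site. The stretches share no motif among those searched.

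The score ran from 6.12 to 84.3 in the 100 cells, with a median of 20.02, and from 0 to 6.02 in the other cells, with a median of 0.832. The cell of rank 100 had a score of 6.122 from 6 marker UMIs and the next cell a score of 6.015 from 9, so that the border falls within a continuous slope. Marker UMIs per cell ranged from 3 to 170 with a median of 30.5 in the 100 cells, against a median of 1 in the others. Of the 100 cells 84 had at least 10 marker UMIs, as did 8 of the other cells. The plot of score by rank shows that the curve flattened inside the group, the score falling from 12.95 to 8.19 in ranks 61 to 80 and from 8.16 to 6.12 in ranks 81 to 100.

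**Figure D1:**
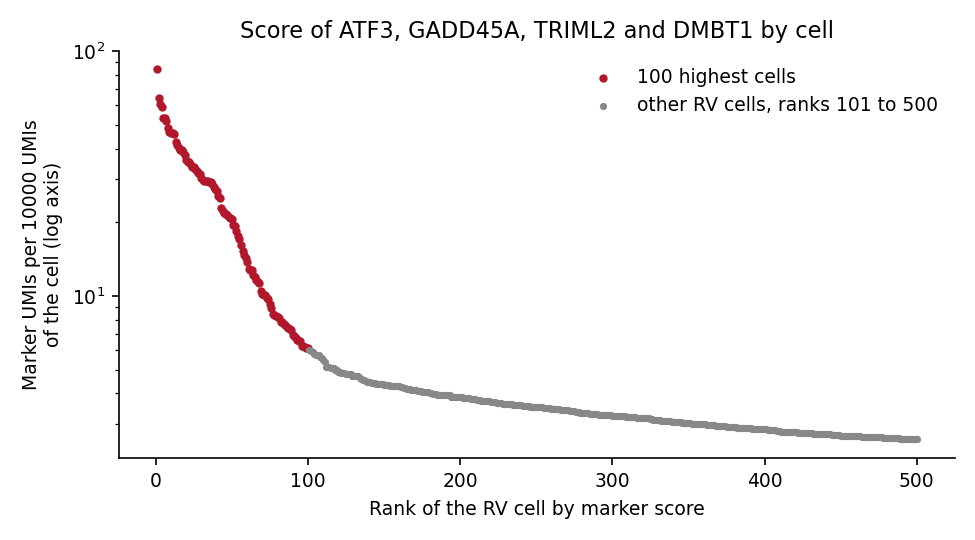
Summed UMIs of ATF3, GADD45A, TRIML2 and DMBT1 per 10000 UMIs of the cell (log axis) against the rank of the RV cell, for the 500 highest cells. The 100 cells described here, in red, run from 84.3 down to 6.12, and the curve goes on without a gap into the other cells, in grey.

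*GADD45A* (ENSG00000116717, GRCh38 chr1:67685061-67688338) dominated the score. It was at 1951 CPM in the 100 cells and 85.9 CPM in the others, and it was the single highest marker in 93 of the 100 cells. *ATF3* (ENSG00000162772, chr1:212565334-212620777) was at 338 and 8.52 CPM, *TRIML2* (ENSG00000179046, chr4:188091273-188109603) at 222 and 6.62 CPM, and *DMBT1* (ENSG00000187908, chr10:122560665-122643736) at 80.1 and 3.04 CPM. These values follow from the rule and are a description only. UMIs of *ATF3* were found in 78 of the 100 cells, of *GADD45A* in 98, of *TRIML2* in 62 and of *DMBT1* in 47. In the other cells the shares were 9.56%, 57.1%, 6.67% and 3.17%. With every cell thinned to 7098 UMIs, which left 89 of the 100 cells and 3806 others, the shares for *ATF3* were 64.0% and 6.04%. A cell type that should lack these genes is not in the culture, so the share given by free RNA was not measured.

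UMIs of all 4 markers were found in 29 of the 100 cells, of 3 in 37, of 2 in 24 and of 1 in 10. These numbers are also largely set by the rule. With *ATF3*, *GADD45A*, *TRIML2* or *DMBT1* left out of the score, 93, 72, 96 and 98 of the 100 highest cells by the other markers were the same cells. The ratios of the gene left out therefore largely restate the choice of cells, and the markers were chosen together on these data, so they are a description only. *ATF3* was 35.9-fold higher (31.7 to 40.7), *GADD45A* 20.6-fold (19.7 to 21.5), *TRIML2* 30.3-fold (26.1 to 35.1) and *DMBT1* 24.6-fold (19.4 to 31.2).

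The 100 cells held more UMIs than the others, with a median of 15836 against 11597, and more detected genes, with a median of 3407.5 against 2551. Mitochondrial genes took a median of 1.84% of their UMIs against 3.08%, and ribosomal protein genes 38.2% against 42.3%. Of the 100 cells 3 were among the 150 RV barcodes with the highest doublet scores, as were 3.48% of the other cells, and 0 were among the 2 RV barcodes marked by the threshold of the scoring tool, too few for it to be relied on. Whether the score finds doublets of like cells in a culture of 1 line was not tested. All barcodes were kept, and without the 150 there were 451 genes at least 2-fold higher and 118 lower by the measure given below. Barcodes of 3 of the 100 cells also occurred in S, 0 in RVC and 3 in RVT, against 0.828%, 1.09% and 1.09% of the other cells. 

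Of 3804 genes outside the score with at least 20 CPM over all RV cells, 461 (12.1%) were at least 2-fold higher in the 100 cells and 120 (3.15%) at least 2-fold lower. The median log2 ratio of these genes was 0.19. With every cell thinned to 7098 UMIs 421 genes were higher, 358 of them among the 461, and 185 lower. Against only the 1561 other cells with a depth between the quartiles of the 100 cells, 444 were higher and 115 lower. At least 4-fold higher were 46 genes and at least 4-fold lower 4. Among the 461 genes, 18 were under 20 CPM in the other cells and reached the level only through the 100 cells. With library sizes counted without ribosomal protein and mitochondrial genes, 312 of the 3710 remaining genes were higher, all among the 461, and 182 were lower, 116 of them among the 120, and the median log2 ratio of these genes was 0.04. On that size 5448 genes reached 20 CPM, of which 557 were higher and 304 lower. The scatter plot of both groups shows that the higher genes lie mainly below 1000 CPM.

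**Figure D2:**
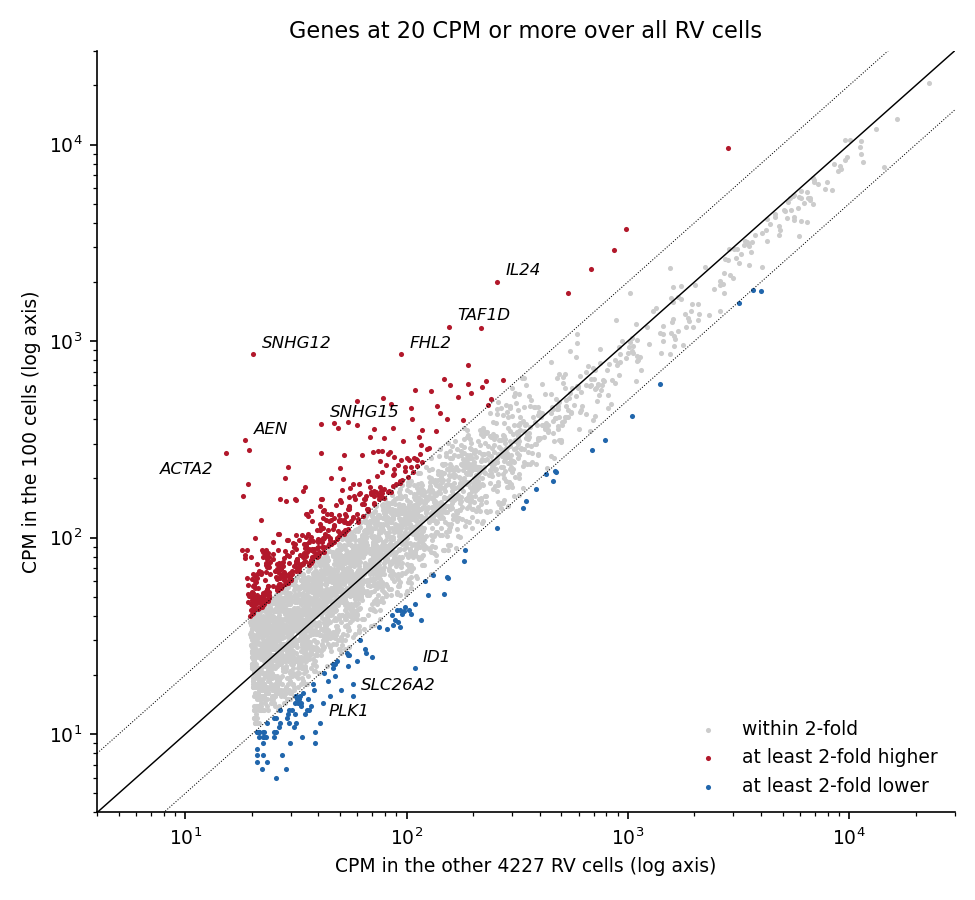
CPM in the 100 cells against CPM in the other 4227 RV cells (log axes) for genes with at least 20 CPM over all RV cells, without the 4 markers. Each point is a gene, dotted lines mark 2-fold, and 461 genes lie above and 120 below them. SNHG12 is the point farthest above the line.

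The largest ratio at this level belonged to *SNHG12* (ENSG00000197989, chr1:28578538-28583132, minus strand), a noncoding RNA gene whose introns hold small nucleolar RNAs (snoRNAs). It was at 856 CPM in the 100 cells and 20.3 CPM in the others, 42.1-fold higher (38.9 to 45.6). Per cell it ranged from 0 to 44.8 UMIs per 10000 with a median of 7.59, and 80 of the 100 cells were above the 99th percentile of the other cells, 1.88. The 50 RV cells with the highest *SNHG12* level were all among the 100 cells, and so were 78 of the 100 highest. After thinning, 89.9% of the 100 cells and 12.9% of the others had a UMI of it. The gene overlaps *TRNAU1AP* on the opposite strand, from which its reads cannot be told apart if counting ignored strand.

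*SNHG15*, another snoRNA host, was 9.21-fold higher (8.42 to 10.1), at 380 and 41.3 CPM. *TAF1D*, which encodes a subunit of the selectivity factor of RNA polymerase I and also hosts snoRNAs, was 7.65-fold higher (7.28 to 8.03), at 1184 and 155 CPM. As with *SNHG12*, the 50 cells highest in *TAF1D* were all among the 100 cells. The levels of both genes within the 100 cells reached from 0 to 16.5 and from 0 to 100.9 UMIs per 10000, so that some of the 100 cells held no UMI of them.

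Genes of the p53 pathway were among the highest. Of 25 p53 targets listed, 13 were at 20 CPM or more over all RV cells, and 12 of these were at least 2-fold higher, against 12.1% of all genes, with a median log2 ratio of 2.35 against 0.19. Of these 12 genes, *AEN* and *TNFRSF10B* were under 20 CPM in the other cells. The other 12 targets were below the level, and 1 of them was not detected. Of these 12, 11 were at least 2-fold higher, against 20.4% of the genes with a UMI in RV cells below the level. *GADD45A*, which dominated the score, is itself a known p53 target, so these counts are not independent of the rule that chose the cells. Whether the other markers are p53 targets too was not looked at, so the dependence may reach further. *AEN* (ENSG00000181026, chr15:88621296-88632282), a nuclease of apoptosis, was at 312 and 18.7 CPM, 16.7-fold higher (15.03 to 18.6). *DDB2*, which recognises DNA damaged by ultraviolet light, was at 496 and 59.8 CPM, 8.29-fold higher (7.67 to 8.95). *PHLDA3*, an inhibitor of AKT, was 8.12-fold higher (7.43 to 8.86), and *MDM2*, the ubiquitin ligase of p53 itself, 7.80-fold (6.96 to 8.74). All 4 overlapped between the groups, since each was absent from some of the 100 cells and 22 to 50 of the 100 were above the 99th percentile of the others.

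Further p53 targets were ordered by size as *FDXR* (6.55-fold), *CDKN1A* (5.36-fold), *XPC* (5.08-fold), *GDF15* (4.32-fold), *TNFRSF10B* (3.31-fold), *TP53I3* (3.08-fold), *BAX* (2.79-fold), *CCNG1* (2.19-fold) and *PLK2* (1.96-fold). *CDKN1A*, the cell cycle inhibitor p21, was at 1167 CPM in the 100 cells and 218 CPM in the others. Its highest cells were not mainly these, since 21 of the 100 RV cells with the highest *CDKN1A* level were among the 100 cells. Per cell the p53 targets summed to between 0 and 105.5 UMIs per 10000 in the 100 cells with a median of 43.3, against a median of 7.53 in the others.

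The integrated stress response had a median log2 ratio of 0.18, near the 0.19 of all genes, and the unfolded protein response one of 0.09. Of 16 integrated stress response genes at the level (of 23 listed) 3 were at least 2-fold higher (18.75%, against 12.1% of all genes) and 1 was lower, and the 23 genes summed to 2710 CPM in the 100 cells and 1705 in the others. The 3 were *DDIT3*, the pro-apoptotic factor CHOP, at 363 and 48.9 CPM (7.42-fold, 6.78 to 8.11), *PPP1R15A*, which restores translation, at 479 and 84.9 CPM (5.65-fold, 5.23 to 6.09), and *SLC3A2*, the heavy chain of amino acid transporters, at 520 and 171 CPM (3.03-fold, 2.83 to 3.25). *PSAT1*, of serine synthesis, was 2.38-fold lower (1.90 to 3.02). *ATF4* was at 119 CPM in the 100 cells and 219 CPM in the others, and *CHAC1*, *ASNS* and *MTHFD2* were also below 1. Of the 7 genes of the list below the level, 3 were at least 2-fold higher and 0 lower. The shares of all genes with a UMI in RV cells below the level were 20.4% and 4.88%, and 7 genes are few to set against them. *DDIT3* overlaps other genes on the opposite strand.

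None of 8 unfolded protein response genes (of 14 listed) was past 2-fold in either direction, where 12.1% of all genes were higher and 3.15% lower, shares at which lists of this size hold few such genes. In this list the chaperone *HSPA5* was at 93.3 and 49.7 CPM. Of 9 heat shock proteins 0 were higher and *HSPA8*, the constitutive HSP70, was 2.39-fold lower (2.10 to 2.74). Of 6 NRF2 antioxidant genes 0 were past 2-fold, with a median log2 ratio of -0.32, and *FTH1* and *FTL*, the ferritin chains, stood at ratios of 0.676 and 0.702. Among the lists for stress, the median log2 ratio was 2.35 for the p53 targets and lay between -0.32 and 0.18 for these 4, and the cells are named here by the rule that chose them. This contrast is not independent of that rule, since *GADD45A*, which dominated the score, is a known target of p53 and of ATF4.

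**Figure D3:**
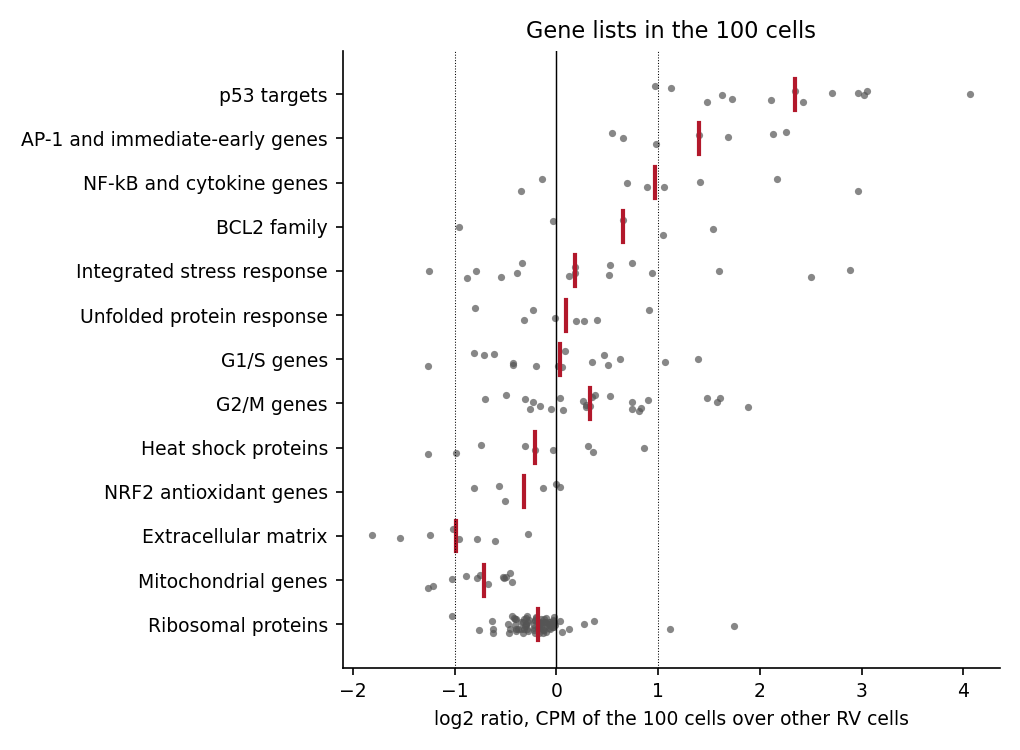
log2 ratio of CPM in the 100 cells over the other RV cells for each gene at 20 CPM or more in 13 gene lists. Points are genes, red bars their median, and dotted lines mark 2-fold. The p53 targets have a median of 2.35 and the mitochondrial genes one of -0.71.

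Immediate-early genes were also higher. Of 7 AP-1 and immediate-early genes at the level (of 20 listed) 4 were at least 2-fold higher, against 12.1% of all genes, and all 7 were above 1, against 61.8% of all genes, with a median log2 ratio of 1.40 against 0.19. Of the 4, *KLF6* was under 20 CPM in the other cells and reached the level only through the 100 cells. *ATF3*, part of the score, is itself a stress-induced transcription factor, so these counts may not be independent of the rule that chose the cells. *JUN* was at 99.4 and 20.7 CPM (4.79-fold, 4.04 to 5.65), *KLF6* at 81.3 and 18.6 CPM (4.38-fold, 3.63 to 5.24), *JUNB* at 267 and 82.8 CPM (3.22-fold, 2.92 to 3.55), and *IER2* at 401 and 152 CPM (2.64-fold, 2.43 to 2.86). *JUN* and *JUNB* encode parts of the AP-1 factor. Per cell *IER2* had a median of 2.06 and a highest value of 72.1 UMIs per 10000. The cell with the most *KLF6* UMIs held 14.1% of those in the 100 cells, and the ratio was 3.83 without it. For *JUN* the cell with the most UMIs held 9.70%, and the ratio was 4.34 without it. Of the 100 cells 31 were above the 99th percentile of the others in the sum of the list and 46 in the sum of the p53 targets, and 16 in both.

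Of 8 NF-kB and cytokine genes at the level (of 19 listed) 4 were at least 2-fold higher, against 12.1% of all genes. *IL24*, a cytokine of the IL-10 family, was at 2008 and 257 CPM (7.81-fold, 7.52 to 8.11), with a median of 17.9 UMIs per 10000 and a range of 0 to 60.5. *CXCL8*, a chemokine for neutrophils, was 4.51-fold higher (4.03 to 5.02), but 1 of the 100 cells held 14.9% of its UMIs and the ratio was 3.88 without it. *IL11* was 2.66-fold higher (2.30 to 3.07) and *LIF* 2.08-fold (1.64 to 2.61). *IL1B* and *SOD2* were below 1. Of 5 BCL2 family genes at the level (of 11 listed) 2 were at least 2-fold higher and 2 were below 1. Of all genes 12.1% were higher and 38.2% below 1, and 5 genes are too few to be set against these shares. *PMAIP1*, the p53-induced NOXA, was 2.90-fold higher (2.61 to 3.22), and *BCL2L1*, which protects from apoptosis, was 2.07-fold higher (1.78 to 2.41). *BID*, which promotes apoptosis, was at 25.9 and 50.4 CPM, a ratio of 0.514 (0.371 to 0.694), *BAD* had a ratio of 0.978 and *MCL1* one of 1.57.

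Other genes with large ratios served several functions. *ACTA2* (chr10:88935074-88991339), smooth muscle actin, was at 270 and 15.3 CPM, 17.6-fold higher (15.7 to 19.8). It overlaps *FAS*, a p53 target on the opposite strand, which was itself at 72.3 and 9.40 CPM. *ABCB9*, a lysosomal peptide transporter, was 14.3-fold higher (12.8 to 15.9) and overlaps genes on the opposite strand. *SUGCT*, an enzyme of glutarate metabolism, was 9.80-fold higher, *FHL2*, a LIM-domain cofactor, 9.09-fold, *FRMD6*, of the Hippo pathway, 8.94-fold, and *DUSP14*, a MAP kinase phosphatase, 7.14-fold. *ACTA2*, *ABCB9*, *SUGCT* and *FRMD6* were under 20 CPM in the other cells and reached the level only through the 100 cells.

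Below the level, 68 genes had at least 50 CPM in the 100 cells. The largest ratios among them were 27.0-fold for *INKA2* (21.7 to 33.7), an inhibitor of the kinase PAK4, 26.0-fold for *KIAA1324* (19.6 to 34.3), 19.8-fold for *UNC5B-AS1* (15.9 to 24.5), a noncoding RNA, 19.4-fold for *BTG2* (16.2 to 23.1), an antiproliferative p53 target, and 14.9-fold for *NR1D1* (12.7 to 17.5), a receptor of the circadian clock. UMIs of *BTG2* were found in 62 of the 100 cells and in 6.91% of the others. Because these genes reached 50 CPM in the group where they were high, their ratios are a description of how high they were.

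Of the genes lower in the 100 cells, *ID1*, an inhibitor of differentiation induced by BMP, had the smallest ratio, at 21.7 CPM in the 100 cells and 109 CPM in the others, 5.02-fold lower (3.62 to 7.17). It was found in 24 of the 100 cells and in 59.8% of the others. *SFRP1*, a Wnt antagonist, was 4.27-fold lower (2.58 to 7.64) and *DAG1*, dystroglycan, 4.27-fold (2.32 to 8.93). *LINC00685* was 4.30-fold lower (2.40 to 8.64), *DPYSL2*, a microtubule protein, 3.77-fold (2.35 to 6.49), *SLC26A2*, a sulfate transporter, 3.66-fold (2.49 to 5.61), and *ASAH1*, acid ceramidase, 3.36-fold (1.87 to 6.76). These genes rest on 10 to 36 UMIs in the 100 cells. With the 200 highest cells the log2 ratio of *DAG1* was -0.871, within 2-fold, and the rest of these genes stayed at least 2-fold lower. *NEAT1*, a nuclear noncoding RNA, was 2.51-fold lower (2.30 to 2.74), at 314 and 787 CPM.

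Extracellular matrix genes were lower as a list. Of 8 at the level (of 16 listed) 4 were at least 2-fold lower, against 3.15% of all genes, and all 8 were below 1, against 38.2% of all genes, with a median log2 ratio of -0.99 against 0.19. *MMP2*, a matrix metalloproteinase, was at 9.64 and 33.8 CPM, *TIMP3*, an inhibitor of such enzymes, at 14.4 and 41.9 CPM, *TIMP1* at 193 and 459 CPM, and the laminin chain *LAMB1* at 15.7 and 31.6 CPM. Of 4 neural crest-like markers at the level 2 were lower, *HLA-DRA* at 7.83 and 27.4 CPM and *RAMP1* at 20.5 and 42.3 CPM, while *SOX10* was at 63.2 and 39.5 CPM. The median log2 ratio of the list, over its genes at the level in each setting, was -0.77, but 0.01 against only the other cells of middle depth, where *HLA-DRA* went from -1.81 to -1.05, and with the 200 highest cells *HLA-DRA* was at -0.55. *CCND1*, cyclin D1 and an output of ERK signalling, was 2.26-fold lower (2.00 to 2.57), and the other 7 ERK output genes at the level were within 2-fold.

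Mitochondrially encoded genes were below 1 in all 12 cases at the level, against 38.2% of all genes, with a median log2 ratio of -0.71 against 0.19. Of the 12, *MT-ND6*, *MT-ATP6* and *MT-CO3* were at least 2-fold lower, against 3.15% of all genes. Of 82 ribosomal protein genes 75 were below 1, also against 38.2%, with a median log2 ratio of -0.19. *RPS27L*, a p53-inducible paralog of *RPS27*, went the other way at 2910 and 866 CPM (3.36-fold, 3.26 to 3.46), as did *RPL39L* (2.17-fold, 1.87 to 2.51). Ribosomal protein genes have many pseudogenes, so their counts are uncertain.

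Cell cycle genes varied within the lists. Of 25 G2/M genes at the level (of 52) 4 were at least 2-fold higher, *NUSAP1* at 136 and 37.0 CPM (3.68-fold, 3.20 to 4.23), *RANGAP1* (3.04-fold), *TPX2* (2.98-fold) and *KIF20B* (2.79-fold), and 0 were lower. Their share of 16% lies near the 12.1% of all genes. *PLK1*, a mitotic kinase outside the list, was at 11.4 and 40.7 CPM, 3.56-fold lower (2.27 to 5.92). *CDK1*, *TOP2A* and *HMGB2* were below 1. Per cell the G2/M genes summed to a median of 24.7 UMIs per 10000 in the 100 cells and 11.6 in the others, and 0 of the 100 cells were above the 99th percentile of the others, 100.9. In ranks 1 to 20 their sum was 4318 CPM and in the other bands of 20 up to rank 100 it was 1898 to 2888 CPM, against 2112 CPM in the cells beyond rank 200. Of 16 G1/S genes at the level (of 41) *TYMS* and *RFC2* were higher and *CLSPN* lower.

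Apart from the GADD45 family list, with 0 genes at the level, the remaining lists had 2 to 7 genes at the level each. At most 1 gene per list was higher, too few for their shares to be set against the 12.1% of all genes. In hypoxia and glycolysis 1 of 6 genes was higher, *SLC2A1*, and in keratins 1 of 6, *KRT10*. The YAP-TEAD list had 1 of 5 higher, *AJUBA*, and the TGF-beta list 1 of 6 higher, *INHBA* at 752 and 189 CPM, and 1 lower, *ID1*. Among interferon and MHC class I genes 1 of 7 was higher, *HLA-B*, and of 2 ATF and CREB genes *CREM* was higher. The metallothioneins *MT2A* and *MT1X* were within 2-fold. A single cell held 44.1% of the *MT1X* UMIs of the 100 cells, and the ratio of 1.19 became 0.669 without it. Of 2 genes of mucosal defence at the level, *LCN2* and *CD55*, neither was past 2-fold.

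The culture is a melanoma line, and markers of other cell types were looked for. Of 12 such markers 5 had no UMI in RV cells, *PTPRC*, *CD3E*, *MS4A1*, *HBB* and *COL3A1*, and 2, *ACTA2* and *CD68*, were at the level. *CD68* was at 69.3 and 70.1 CPM. In summed CPM the 12 markers were at 341 in the 100 cells and 87.0 in the others, of which *ACTA2* gave 270 and 15.3. Their part in the results was not tested. The 11 genes listed for the melanoma line summed to 2195 CPM in the 100 cells and 2697 in the others, of which vimentin, *VIM*, gave 2026 and 2611. Of the 3 at the level, *SOX10* and *VIM* were within 2-fold, and *MITF*, the melanocyte lineage factor, was at 86.7 and 18.0 CPM (4.83-fold higher, 4.03 to 5.76), so that it reached the level only through the 100 cells. Of the other 8, below the level, 0 were at least 2-fold higher and 2 at least 2-fold lower, *S100A1* and *S100B* with 1 UMI each in the 100 cells, against 20.4% and 4.88% of the 16792 genes with a UMI in RV cells below it.

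The 100 cells were not uniform along the ranks. *SNHG12* was at 1112 CPM in ranks 1 to 20 (1014 to 1217), 744 CPM in ranks 61 to 80 and 185 CPM in ranks 81 to 100, the last being near the 173 CPM of the next 20 cells, outside the group. *AEN* went from 582 CPM in ranks 1 to 20 to 60.3 CPM in ranks 81 to 100 and *TAF1D* from 1741 to 311 CPM. *IL24* stayed between 2058 and 2372 CPM through rank 80 and was at 1071 CPM in ranks 81 to 100. *CDKN1A* was at 1209, 1543, 1113, 1106 and 580 CPM in the 5 bands. The median mitochondrial share was 1.28% in ranks 1 to 20 and 3.01% in ranks 81 to 100, and the median depth 23640 and 11130 UMIs.

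*ATF4* and *NEAT1*, chosen for this after their values were seen, had their lowest values in ranks 1 to 20, with intervals that overlap those of the next bands. *ATF4* was at 78.1 CPM there (53.7 to 109.6), 113.7 CPM in ranks 21 to 40 (82.6 to 152.7), 218 CPM in ranks 81 to 100 and 191 CPM in the next 20 cells. *NEAT1* was at 177 CPM in ranks 1 to 20 (139.6 to 222.4), 179.5 CPM in ranks 41 to 60 (137.3 to 230.6) and 807 CPM in ranks 81 to 100. It was at 311 CPM in the next 20 cells and 796 CPM beyond rank 200, so that it followed no steady order. In ranks 61 to 100 taken alone, an alternative added after seeing the data, 131 genes were at least 2-fold higher than in the other cells and 172 lower, and the median log2 ratio was 1.21 for the p53 targets, 0.73 for the AP-1 list, 0.035 for the NF-kB list, -0.44 for the extracellular matrix list and -0.30 for the mitochondrial genes. Of the 100 cells 44 were above the 99th percentile of the others in both *SNHG12* and the p53 targets, 36 in *SNHG12* alone, 2 in the p53 targets alone and 18 in neither. Of the last 18 cells 17 were in ranks 61 to 100. Of the other 4227 cells 1 was above in both.

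**Figure D4:**
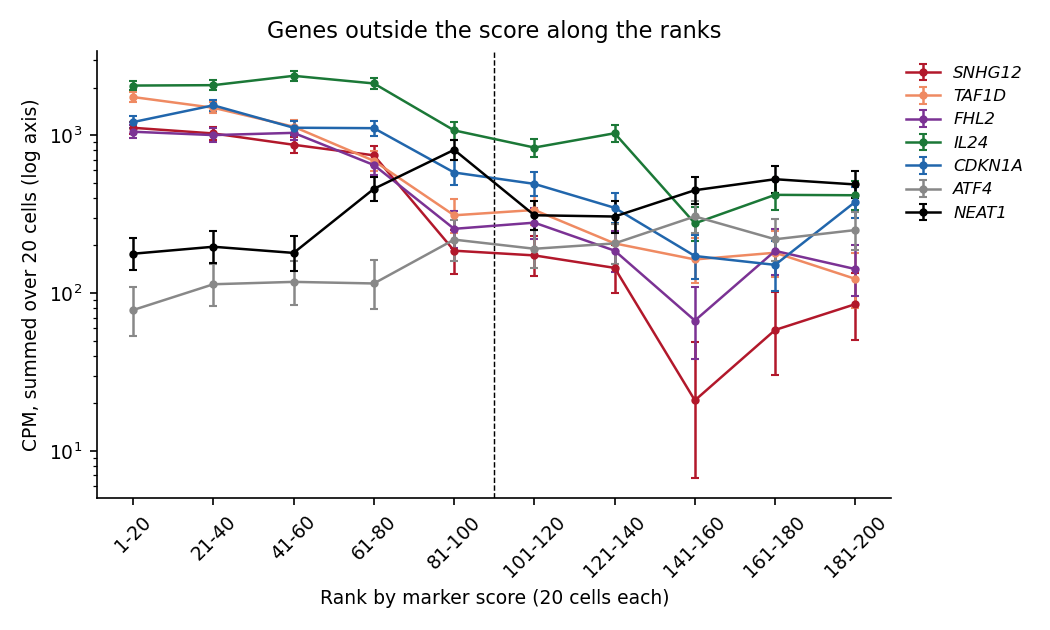
CPM of 7 genes outside the score (log axis) in bands of 20 RV cells ordered by marker score, with exact Poisson 95% intervals. The dashed line is the border at rank 100. SNHG12 is at 1112 CPM in the first band and 185 CPM in the band just inside the border, and ATF4 and NEAT1 are lowest in the first bands.

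The same score was taken in the other libraries, whose 100 highest cells share no cell with RV. Cells at or above the RV border numbered 32 of 6693 in S (0.478%, 0.327% to 0.674%), 28 of 8307 in RVC (0.337%, 0.224% to 0.487%) and 34 of 9313 in RVT (0.365%, 0.253% to 0.510%). Depth differed, with a median of 8911 UMIs per cell in S, 4099 in RVC, 2951 in RVT and 11650 in RV. Each cell with at least 1500 UMIs was also thinned to that number, which kept all cells of RV and S, 7904 of RVC and 8461 of RVT. At this depth, where 1 marker UMI already passes the border, the shares were 14.98% in RV, 11.1% in S, 2.97% in RVC and 2.25% in RVT. Cells with at least 10 marker UMIs numbered 92 in RV, 19 in S, 0 in RVC and 0 in RVT.

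In S, untreated, the 100 highest cells had a median of 5 marker UMIs, against 30.5 in RV. Of 3730 genes 60 (1.61%) were at least 2-fold higher in them and 33 (0.885%) lower. Of 12 p53 targets at the level in S 7 were higher. *SNHG12* was at 143 and 32.0 CPM, *IL24* at 511 and 150 CPM, *MDM2* at 68.2 and 22.7 CPM, and *FHL2* at 151 and 52.0 CPM. *TAF1D* was at 232 and 185 CPM and *DDIT3* at 151 and 86.7 CPM, within 2-fold. Of 3530 genes at the level in both libraries, 404 were higher in RV and 57 in S, and 27 in both, 6.68% of the RV genes and 47.4% of the S genes. Of the 404 genes 367 were above 1 in S, as were 2224 (63%) of all 3530. The plot of ratios in RV and S shows the S ratio below the RV ratio for each of the 15 genes, which were picked for their RV values. The difference between the libraries was not tested.

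**Figure D5:**
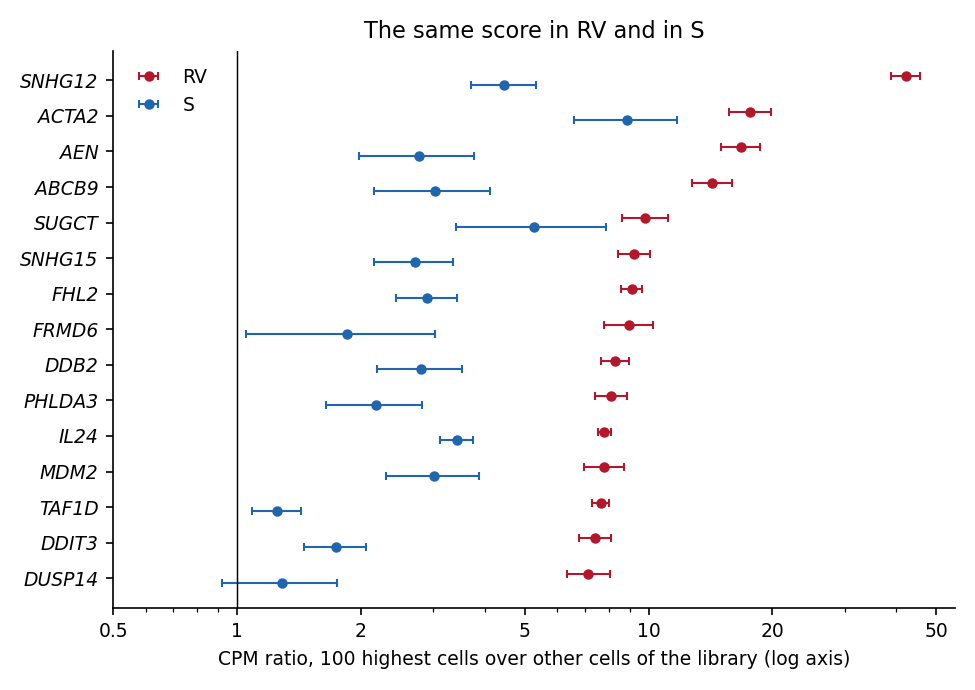
Ratio of CPM in the 100 highest cells over the other cells of the same library (log axis), with exact 95% intervals for counting error, for the 15 genes with the largest RV ratio. SNHG12 stands at 42.1 in RV and 4.46 in S, and the intervals of both libraries are above 1 for every gene but DUSP14 in S.

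The score picked shallow cells in the MEK inhibitor libraries, where 90 of the 100 highest RVC cells and 87 of the 100 highest RVT cells had UMIs of 1 marker and the median was 1 marker UMI. In RVC 39 of 3693 genes (1.06%) were higher and 115 (3.11%) lower, and 3 of 9 p53 targets were higher. In RVT 197 of 4300 genes (4.58%) were higher and 215 (5%) lower. There the highest cells were led by *ATF3*, at 350 and 5.98 CPM, and *DDIT3* was at 827 and 56.1 CPM. Of 10 unfolded protein response genes in RVT 9 were higher and of 9 integrated stress response genes 5, whereas 3 of 8 p53 targets were. In RV these shares were 0 of 8, 3 of 16 and 12 of 13. RVC and RVT were counted with another gene annotation than RV and S, and *DMBT1* had 6 UMIs in all of RVC and 7 in all of RVT.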

How the data were processed

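The authors captured A375 cells on the 10x Genomics Chromium controller (v2 kit), and the submitters' processing notes name Cell Ranger and bcl2fastq 2.20.0.422. The deposited tables hold raw UMI counts, in whole numbers, for each Ensembl gene in each cell barcode, and were not normalized. The study removed dead and doublet cells at thresholds it does not name. The RVC and RVT tables hold as many barcodes as the cells it counts before naming that step, and the RV and S tables hold more.

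Barcodes with at least 500 genes and at most 20% mitochondrial UMIs were kept, which removed 1 RV barcode of 4328. The RV cells hold 55283706 UMIs, 1660550 of them in the 100 cells. Gene symbols and positions came from GENCODE 29 (GRCh38), which holds 33132 of the 33694 identifiers of RV. UMIs were summed over cells and given as CPM. A ratio with 0 UMIs in a group was taken against 3 UMIs. Intervals at 95% are Poisson for CPM, conditional binomial for ratios and Clopper-Pearson for shares, and cover counting error only. Doublets were scored with scrublet in scanpy 1.11.5 (seed 1) and kept, except in an alternative. The calculations used python 3.11.15, numpy 2.4.6, pandas 2.3.3 and scipy 1.17.1, and figures matplotlib 3.10.9.

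Genes named were the 4 markers, the 15 largest and 10 smallest ratios among genes with at least 20 CPM over all RV cells, the 5 largest ratios among rarer genes with at least 50 CPM in the 100 cells, and up to 4 genes per list. Other genes were named after their values were seen. A few results are not reported here. The members, the lists and the rules were chosen with earlier results of these data known. In sums simulated for 3804 genes of the RV comparison, with 50 genes at each fold, 100% of the genes changed 4-fold and 100% of those changed 3-fold passed 2-fold, and 0% of the unchanged genes did. These sums carried counting error only, so that spread between cells was not simulated.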

Additional observations from a re-analysis of the deposited data

Results flagged for a closer look

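In each case below the 100 highest cells of a library were compared with its other cells, and the ratio lay above 1 in RV and below 1 in another library. *IL11* had a log2 ratio of 1.41 in RV and of -1.17 in RVC, where the 100 cells held 6 of its UMIs and the ratio was 0.444 (0.163 to 0.969). *KIF20B* had 1.48 in RV and -1.21 in RVT, on 2 UMIs there, with a ratio of 0.432 (0.0522 to 1.57). *NUSAP1* had 1.88 in RV and -1.30 in RVT, on 4 UMIs, with a ratio of 0.406 (0.110 to 1.04). The intervals of *KIF20B* and *NUSAP1* in RVT include 1. With 1 library per condition the difference was not tested.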

How the results depend on the processing

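Against 461 genes higher and 120 lower, the 50 highest cells gave 709 higher genes, the 200 highest 218 higher and 17 lower, a level of 10 CPM 827 and 221, a level of 50 CPM 157 and 51, a 1.5-fold limit 1048 and 395, and a 3-fold limit 123 and 15. The lower genes numbered 185 in thinned cells. With library sizes without ribosomal protein and mitochondrial genes they numbered 304 among 5448 tested genes and, in an alternative added after seeing the data, 182 among the genes of the main comparison. Ranks 61 to 100 alone, also added then, gave 131 higher genes. A total of 23 of the 38 counts stayed within 1.5 times. Leaving *GADD45A* out of the score moved its log2 ratio from 4.51 to 4.36, which is no independent check, since 72 of the cells are the same. The 15 largest and 10 smallest ratios kept their direction, and other genes were not recomputed. Of their 325 values 97 moved beyond their counting interval, and of 349 medians of lists 79 did, the median of the p53 targets lying between 1.21 and 2.51. No paired analysis was possible because each condition has 1 library. Rare transcripts are limited by depth, 1 UMI in the 100 cells being 0.602 CPM.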

Other observations

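Genes that host snoRNAs in their introns were looked at after the ratio of *SNHG12* had been seen. Of 9 noncoding hosts with at least 20 CPM over all RV cells 6 were at least 2-fold higher in the 100 cells, against 12.1% of all genes. They were *SNHG12*, *SNHG15*, *ZFAS1* (3739 and 985 CPM, 3.80-fold), *EPB41L4A-AS1* (597 and 157 CPM, 3.79-fold), *SNHG8* (1756 and 539 CPM, 3.26-fold) and *SNHG9* (128 and 57.0 CPM, 2.24-fold). *SNHG7* stood at 1.81, *SNHG25* at 1.03 and *SNHG19* at 0.662. *SNHG12*, which prompted the list, and *SNHG15* had already been named for their large ratios, so the share is not independent of that choice. The 9 hosts are all annotated as lincRNA (long intergenic noncoding RNA) or antisense RNA genes. Of 28 ribosomal protein genes that host snoRNAs 0 were higher and 1 was lower, and of 71 other coding hosts 14 were higher. Among 81 noncoding genes without snoRNAs 17 were higher. Per cell the noncoding hosts summed to 9.56 to 269 UMIs per 10000 in the 100 cells, with a median of 75.3 against 22.0 in the others, and 78 of the 100 cells were above the 99th percentile of the others. This sum includes *SNHG12*, for which alone 80 of the 100 cells were above that percentile.

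*GADD45B*, a relative of *GADD45A* below the level, was at 73.5 CPM in the 100 cells and 13.8 CPM in the others. *EGR1* and *FOS*, immediate-early genes also below it, were at 132 and 16.4 CPM and at 37.9 and 7.07 CPM. Each was named after its values were seen.

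Among genes at least 2-fold higher, the most abundant was *HIST1H4C*, a replication-dependent histone H4 gene, at 9597 CPM in the 100 cells and 2838 CPM in the others, a ratio of 3.38. *TNFRSF12A*, the receptor for the cytokine TWEAK, was at 2326 and 684 CPM, a ratio of 3.40. Both were named after their values were seen.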
